A study of Homo sapiens with 45 samples.

Results

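Lamina-associated bins that carried both H3K9me2 and H3K27me3 in control cells, but not H3K9me3, made up 2735 of the 57494 bins of 50 kb into which chromosomes 1 to 22 of GRCh38 were cut. They were chosen from the control domain lists alone: at least 50% of a bin's bases lay in a lamin B1 domain, at least 50% in an H3K9me2 domain and at least 50% in an H3K27me3 domain, with under 50% in an H3K9me3 domain. Together they span 136.75 Mb and form 16% of the 17079 bins covered by control lamin B1 domains. A bin was called kept when at least 50% of its bases also lay in a lamin B1 domain of the HNRNPK-depleted cells, and lost otherwise. By this count 1645 bins were kept and 1090 were lost.

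All samples were HCT116, a human colon cancer cell line, transfected with siRNA at 25 nM and collected after 72 h. One set received a nontargeting control siRNA and another an siRNA against HNRNPK. This gene encodes heterogeneous nuclear ribonucleoprotein K, whose KH domains hold cytosine-rich RNA and DNA strands. Chromatin immunoprecipitation sequencing (ChIP-seq) was labelled with 3 control and 3 knockdown libraries for lamin B1 and for H3K9me3, 2 and 2 for H3K27me3, and 3 control libraries for H3K9me2. H3K9me2 in depleted cells was not analysed here. Poly(A) RNA sequencing compared 4 libraries of the control siRNA siNTC5 with 4 of the HNRNPK siRNA. A further control group of 2 RNA libraries, labelled Scramble and at the same dose and time, entered only an alternative fit. Nothing in the labels says whether replicates were separate cultures, so their spread may be technical.

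Lamin B1 is an intermediate filament protein that lines the inner face of the nuclear envelope, and the genome segments it contacts are called lamina-associated domains. H3K9me2, placed mainly by the enzymes EHMT1 and EHMT2, and H3K9me3, placed by SUV39H and SETDB1 enzymes, mark gene-poor heterochromatin. H3K27me3 is the product of Polycomb repressive complex 2 and marks silent developmental genes, often with CpG-rich promoters. The bins described here hold a combination of the first and the last of these marks at the lamina.

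The question put to the lists was which of these doubly marked bins stay in lamin B1 domains when HNRNPK is depleted. The kept share was 60.1%, so 39.9% of the bins were lost, against 29.3% of all control lamin B1 bins. Bins with H3K27me3 alone were kept in 17.2% of 3250 cases, and bins with none of the marks in 19.1% of 1026. Bins with H3K9me2 and H3K9me3 were kept in 98.1% of 8291 cases, and bins with all 3 marks in 95.9% of 1356. The doubly marked bins therefore lay between the classes that were mostly lost and those that were mostly kept. Each antibody and siRNA has 1 domain list, so no error between replicates and no test can be given for any of these shares.

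Most bins were far from the 50% limits. In the depleted cells 945 bins had no base in a lamin B1 domain and 1409 were covered over their whole length. Only 40 of the kept bins had a cover from 50% to under 60%, and 40 of the lost bins from 40% to under 50%. Control H3K27me3 covered 99.4% of the bins fully, control lamin B1 96.3% and control H3K9me2 86.3%, while 94.0% had no base of control H3K9me3. Just inside the H3K9me2 limit, 29.1% of 55 bins were kept, and just outside it 31.0% of 71 bins were kept. Just inside the H3K9me3 limit, 95.2% of 42 bins were kept, and just outside it 96.9% of 32. At the lamin B1 limit itself 9.09% of 11 bins just inside and 7.69% of 13 just outside were kept. At the H3K27me3 limit, 2 bins lay just inside and 2 just outside, and all of them were kept.

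Kept bins sat in control lamin B1 domains of higher score. The score is the number the authors deposited with each domain, used here only to rank domains within a list. Its median was 1.54 for the domains of kept bins and 1.03 for those of lost bins, and the upper quartile of the lost bins, 1.40, lay below the kept median. The domains themselves were also longer, with a median length of 1420 kb for kept and 795 kb for lost bins. Among bins in domains scoring under 0.75, 14.5% of 338 were kept. From 0.75 to 1.25 the share was 44.3% of 736, from 1.25 to 1.75 it was 71.7% of 1073, and at 1.75 and above it was 85.2% of 588. The lowest score in each of the lamin B1 lists was at most 0.477, so domains under 0.75 lie near the low end. A small change could take such a domain off the second list, and the part of this in the kept shares was not tested.

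**Figure D1:**
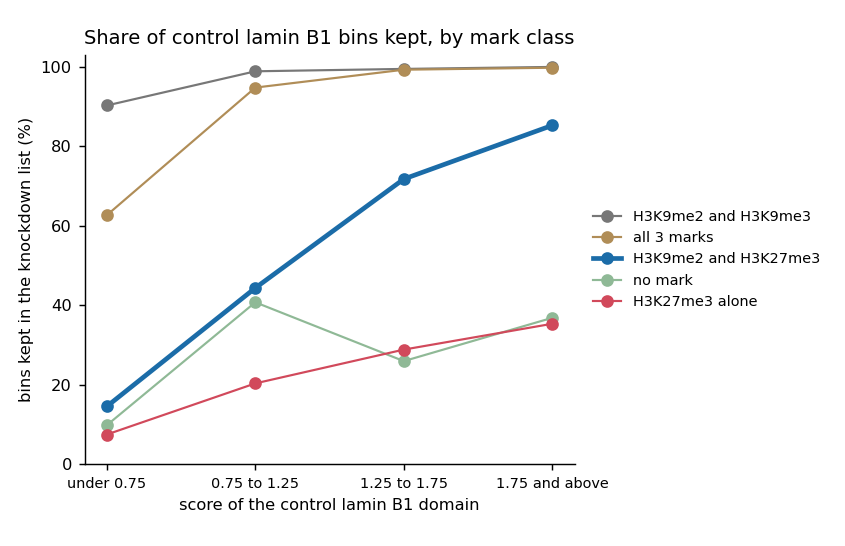
Share of control lamin B1 bins kept in the knockdown list (y axis, percent) by the score of the control domain that holds them (x axis, 4 ranges), with 1 line per mark class and no error bars because each list is single. The thick blue line of bins with H3K9me2 and H3K27me3 climbs from 14.5% to 85.2%, while H3K27me3 alone ends at 35.3% and H3K9me2 with H3K9me3 starts at 90.2%.

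The same scores went with other kept shares in other mark classes. At 1.75 and above, 35.3% of 156 bins with H3K27me3 alone were kept, which is 49.9 percentage points below the doubly marked bins at that score. At under 0.75, the share of bins with H3K27me3 alone was 7.44% of 1438. Bins with H3K9me2 and H3K9me3 were kept in 90.2% of 1011 cases even at under 0.75. The range from the lowest to the highest scores was 70.7 percentage points in the doubly marked bins, 27.8 in bins with H3K27me3 alone and 9.65 in bins with H3K9me2 and H3K9me3. Bins share domains, so these counts are not independent: the 2735 bins came from 396 control lamin B1 domains.

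Position within the domain also separated the outcomes. Kept bins had a median distance of 235 kb to the nearest end of their control lamin B1 domain, and lost bins 140 kb. Of 289 bins under 50 kb from an end, 29.1% were kept, compared with 80.6% of 494 bins at 400 kb or more. The order held inside each score range: under 0.75, 18% of bins at 100 kb or more from an end were kept against 10.3% of nearer ones, and at 1.75 and above, 90.8% against 63.9%. Of the 396 domains, 123 kept every doubly marked bin, 101 lost every such bin and 172 did both. The domains that lost all had a median score of 0.627 and a median length of 465 kb, and those that kept all had 1.35 and 1570 kb. In 142 of the 172 domains with both outcomes the kept bins were on average farther from the domain end, and in 30 the lost bins were.

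The neighbourhood of H3K9me3 differed as well. The median distance to the nearest control H3K9me3 domain was 410 kb for kept bins and 820 kb for lost bins. Of 211 bins that touched or overlapped such a domain 92.4% were kept, of 462 others within 100 kb 76.2%, and of 676 at 300 to 1000 kb 48.4%. Beyond 1000 kb the share was 54.8% of 1021, so the fall did not continue with distance. In the highest score range the farthest bins were kept in 91.7% of 156 cases, from 11 domains, and those at 300 to 1000 kb in 69.1% of 110. In the domains with both outcomes the lost bins were on average farther from H3K9me3 in 126, nearer in 44, and at equal distance in 2.

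The scores of the histone marks ran in opposite directions. The median score of the control H3K9me2 domain was 1.06 for kept and 0.827 for lost bins, and the share kept rose over 4 groups of nearly equal size from 42.3% of 686 bins in the lowest to 77.9% of 684 in the highest. The median score of the control H3K27me3 domain was 1.58 for kept and 2.03 for lost bins, and here the share kept went down from 78.3% of 691 bins in the lowest group to 36.7% of 664 in the highest. Within the lamin B1 score range of 0.75 to 1.25, the H3K27me3 groups were kept in 75.3%, 53.7%, 26.5% and 20.9% of cases in rising order. At 1.25 to 1.75 the shares were 81.1%, 71.1%, 71.4% and 61.3%, and at 1.75 and above 89.3%, 87.2%, 86.2% and 69.0%, so the fall was shallower in domains of higher score. Under 0.75 they were 49.3% in the lowest group and 7.32%, 5.26% and 5.26% in the others. Across the 2735 bins the lamin B1 and H3K9me2 scores had a Spearman correlation of 0.442, H3K9me2 and H3K27me3 scores of -0.290, and the H3K9me2 score and the distance to H3K9me3 of -0.568. These are descriptions over bins that share domains, and how far each measure goes with the outcome apart from the others was not tested.

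**Figure D2:**
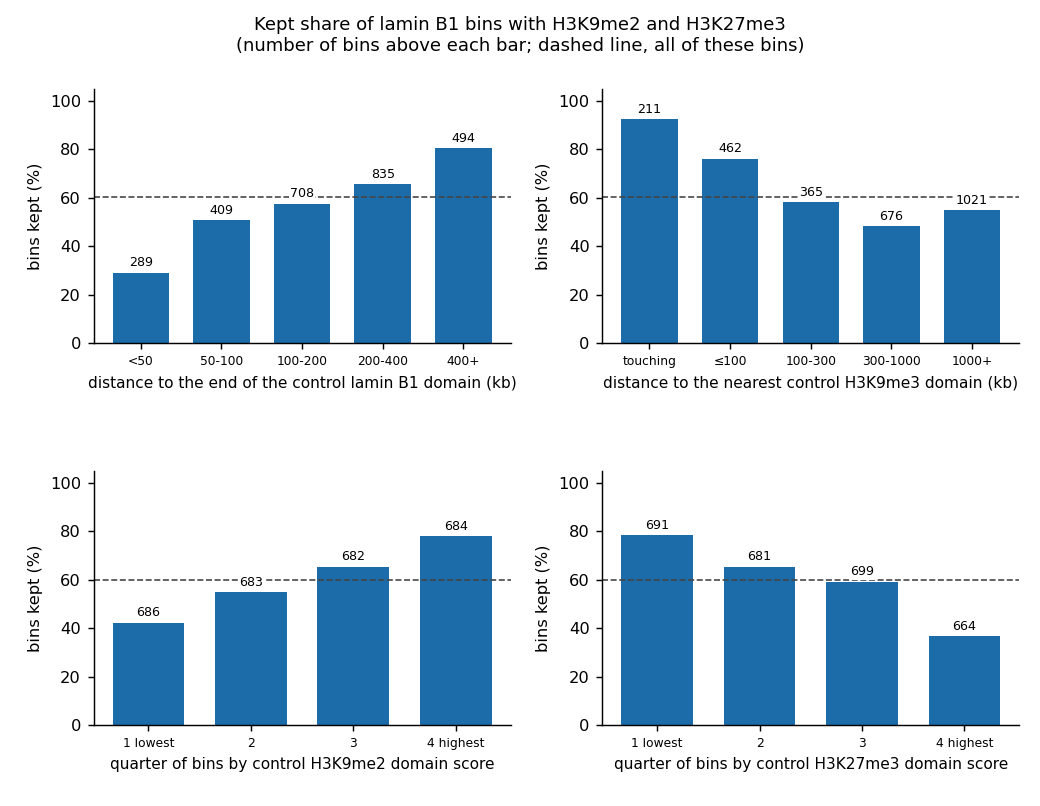
Share of doubly marked bins kept (y axis, percent) by distance to the lamin B1 domain end, by distance to the nearest control H3K9me3 domain, and by 4 groups of H3K9me2 and of H3K27me3 domain score, with the number of bins above each bar and the overall 60.1% as a dashed line. The bars rise with distance from the domain end (29.1% to 80.6%) and with H3K9me2 score (42.3% to 77.9%), and fall with H3K27me3 score (78.3% to 36.7%).

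The 2735 bins formed 558 uninterrupted runs, of which 251 with 723 bins were kept throughout, 131 with 571 bins were lost throughout and 176 with 1441 bins held both. A bin carrying H3K9me3 at the lamina stood directly beside 90.4% of the runs kept throughout and 28.2% of those lost throughout. Bins with H3K27me3 alone stood beside 66.5% and 64.9% of them. Bins outside control lamin B1 domains stood beside 29.9% of the runs kept throughout and 58.8% of those lost throughout.

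The longest stretches of each outcome held a few long genes. On chromosome 1, 31 kept bins in a row (chr1:176350001-177900000) hold PAPPA2, a metalloprotease that cleaves insulin-like growth factor binding proteins, ASTN1, a membrane protein of migrating neurons, and BRINP2. Their lamin B1 domain scored 1.91 in controls, and in depleted cells lamin B1 covered all of the run. The next were 28 kept bins on chromosome 6 (chr6:123400001-124800000) with TRDN, the triadin of muscle calcium release, and NKAIN2, and 25 kept bins on chromosome 12 (chr12:98750001-100000000) with ANKS1B and GARIN6. The longest lost stretch was 19 bins on chromosome 7 (chr7:131700001-132650000), where the one coding gene counted is PLXNA4, a semaphorin receptor of growing axons. Its control lamin B1 domain scored 0.948 and its H3K27me3 domain 2.78. RELN, which encodes the secreted guidance protein reelin, covers most of 13 lost bins on the same chromosome (chr7:103450001-104100000). ADAM12 and C10orf90 reach into 13 lost bins on chromosome 10 (chr10:126200001-126850000). In each of these 6 stretches H3K27me3 covered 100.0% of bases in depleted cells and H3K9me3 covered 0.0%.

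**Figure D3:**
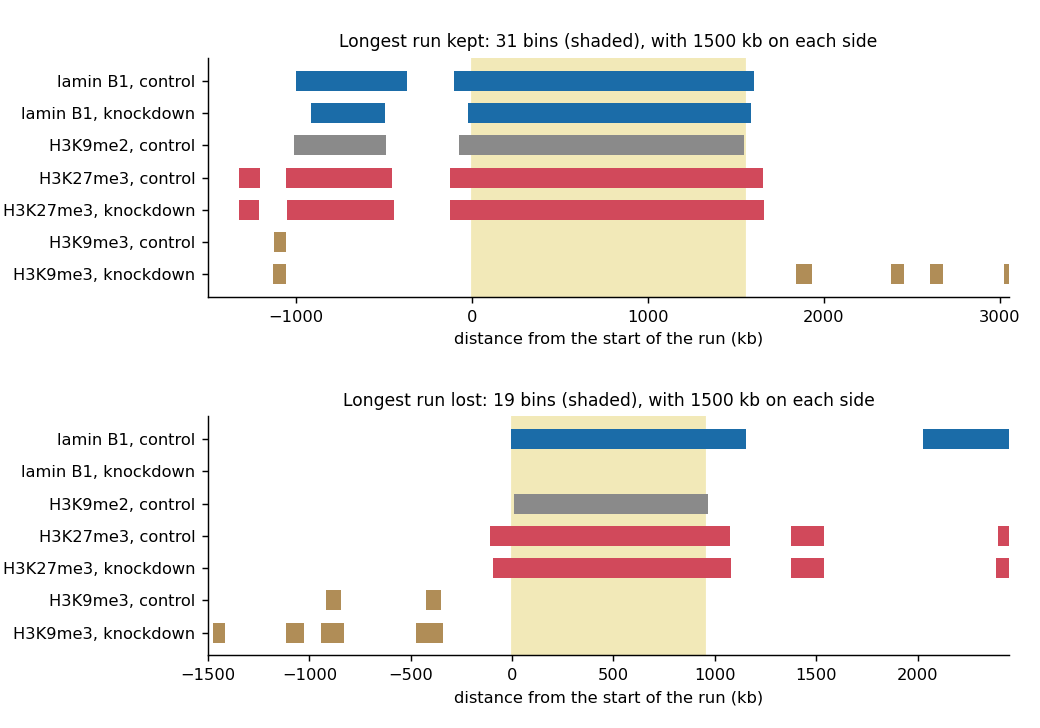
Domains of the 7 lists (rows) around the longest kept run of 31 bins (top) and the longest lost run of 19 bins (bottom), each shaded, with distance from the start of the run on the x axis in kb and filled bars where a list holds a domain. H3K27me3 bars cover both runs in both conditions, while the knockdown lamin B1 row is filled over the kept run and empty over the lost one.

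The outcome varied between chromosomes. Chromosome 1 had the most doubly marked bins, 381, and kept 62.2% of them. Chromosome 6 kept 76.5% of 217 and chromosome 13 kept 82.9% of 82, while chromosome 12 kept 48.0% of 250, chromosome 7 48.5% of 206, chromosome 15 37.6% of 93 and chromosome 16 34.6% of 78. Chromosome 22 kept 3 of 41 bins and chromosome 18 kept 17 of 18. On chromosomes 15 and 16 the other control lamin B1 bins were kept in 82.2% and 80.5% of cases.

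**Figure D4:**
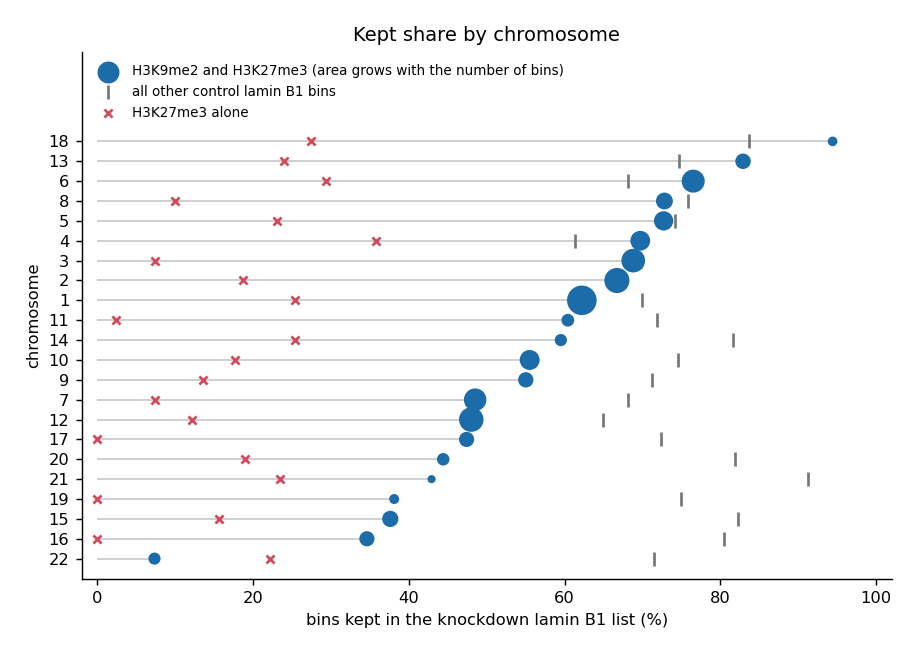
Share of bins kept in the knockdown lamin B1 list (x axis, percent) on each chromosome (y axis, sorted), with blue points for the doubly marked bins, grey ticks for all other control lamin B1 bins and red crosses for bins with H3K27me3 alone. Blue points spread from 7.32% on chromosome 22 to 94.4% on chromosome 18.

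H3K27me3 domains did not leave the bins that were lost from the lamin B1 domain list. Mean cover of the lost bins by H3K27me3 domains was 99.94% in controls and 99.96% in depleted cells, and that of the kept bins was 99.76% and 99.87%. No doubly marked bin fell under 50% cover. The score of the H3K27me3 domain in controls and depleted cells had a Spearman correlation of 0.976 across the bins.

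H3K9me3 domains appeared in some bins of both kinds. Mean H3K9me3 cover went from 2.40% to 10.8% in kept bins and from 0.165% to 8.24% in lost bins. At least 50% of a bin was newly covered in 172 of 1645 kept bins, or 10.5%, and in 93 of 1090 lost bins, or 8.53%. The same share was 5.17% of bins with H3K27me3 alone, 5.95% of lamin B1 bins with no mark and 6.17% of bins outside control lamin B1 domains with under 50% control H3K9me3. Split by outcome, it was 10.4% of 559 kept and 4.09% of 2691 lost bins with H3K27me3 alone. With no mark it was 7.65% of 196 kept and 5.54% of 830 lost bins. Among doubly marked bins with no control H3K9me3 base at all, the share was 7.38% of 1490 kept and 8.04% of 1082 lost bins, so the order of kept and lost turned once partly covered bins were left out. H3K27me3-alone bins without such a base reached 4.69%.

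The kept and lost bins differed in how many genes they hold. The 1645 kept bins contained 134 coding genes by gene body, which is 1.63 per Mb, and the 1090 lost bins 179, or 3.28 per Mb. All bins of chromosomes 1 to 22 hold 6.65 per Mb, lamin B1 bins with H3K27me3 alone 2.99 and those with H3K9me2 and H3K9me3 1.64. Genes in kept bins were longer, with a median of 59.2 kb against 17.0 kb in lost bins. Clusters of short genes add to this contrast. The run with the most genes, 10 lost bins on chromosome 1 (chr1:152550001-153050000), holds 28 genes. Most are genes of the skin barrier, among them genes of the LCE and SPRR families and IVL, which encodes involucrin. Without this run the lost bins had 2.80 genes per Mb and a median length of 35.4 kb. Without the 5 runs with the most genes, which also hold OR6C, CLEC and GIMAP genes, the densities were 1.43 in kept and 2.39 in lost bins, with median lengths of 89.1 and 46.0 kb.

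Families of membrane proteins made up part of this content. Potassium, sodium and calcium channel subunits, which set the excitability of nerve and muscle cells, had 12 of 137 genes (8.76%) in the doubly marked bins, compared with 1.68% of all 19122 coding genes. CACNA1E, KCNH1, KCNH7, KCNJ8 and KCNK10 lay in kept bins, and KCNA1, KCNA3, KCNA5, KCNA6, SCN10A and SCN11A in lost bins. Of 65 glutamate, GABA, glycine and acetylcholine receptor subunits 5 (7.69%) were there, 4 in kept bins and 1 in lost bins. Control lamin B1 bins of any class held 37 of the channel genes, 26 of these receptor subunits and 1886 of all coding genes. Of those 1886 genes, 322 lay in the doubly marked bins. The 1.68% therefore counts many genes that lie outside control lamin B1 domains. Of 44 ADAM and ADAMTS metalloproteases, which cut extracellular and membrane proteins, ADAM12, ADAMTS12 and ADAMTS18 lay in lost bins. PAX3, TBX5, FOXB1 and FOXI2, developmental transcription factors from a list of 86, all lay in lost bins, as did 15 of 22 olfactory receptor genes. Of 131 homeobox genes, 1 lay in kept and 2 in lost bins. Collagens had 3 of 42 genes there (COL6A5 kept, COL6A6 and COL25A1 lost), axon guidance genes 2 of 68 (EPHB1 kept, PLXNA4 lost), cytochrome P450 and glucuronosyltransferase genes 2 of 76 (CYP4X1 and UGT3A1, both lost), and neural adhesion genes 1 of 53 (CADM3, kept). ZNF536 was the single member among 497 genes named ZNF, and no cadherin or clustered protocadherin of the 97 listed lay in the bins. These are counts of neighbouring genes that often share a bin, given without a test.

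Promoter sequence was compared in windows of 250 bases before to 50 bases after a start that RefSeq (GRCh38.p14) gives. Where several windows are listed for a gene, the first was used, and other starts were not analysed here. For ANKFN1 and PLXNA4 this window lies inside the gene body, away from its outer end. The 6 printed here belong to genes on which the RNA results below turn: ANKFN1, ASTN1, ADAMTS12 and PLXNA4, whose RNA rose, and SLC15A4 and UQCRFS1, which were already well expressed in controls. Capitals mark each CG, the dinucleotide at which DNA is methylated and which is dense at many promoters. ANKFN1 has 7 in its window (chr17:56153225-56153524, plus strand), ASTN1 20 (chr1:177164663-177164962, minus strand), SLC15A4 31 (chr12:128823909-128824208, minus strand), ADAMTS12 24 (chr5:33891941-33892240, minus strand), PLXNA4 30 (chr7:132576421-132576720, minus strand) and UQCRFS1 32 (chr19:29213102-29213401, minus strand).
ANKFN1: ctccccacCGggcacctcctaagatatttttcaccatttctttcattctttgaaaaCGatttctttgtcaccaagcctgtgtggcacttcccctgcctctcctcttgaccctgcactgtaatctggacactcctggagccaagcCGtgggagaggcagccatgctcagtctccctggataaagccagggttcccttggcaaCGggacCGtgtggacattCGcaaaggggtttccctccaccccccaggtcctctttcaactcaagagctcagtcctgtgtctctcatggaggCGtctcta
ASTN1: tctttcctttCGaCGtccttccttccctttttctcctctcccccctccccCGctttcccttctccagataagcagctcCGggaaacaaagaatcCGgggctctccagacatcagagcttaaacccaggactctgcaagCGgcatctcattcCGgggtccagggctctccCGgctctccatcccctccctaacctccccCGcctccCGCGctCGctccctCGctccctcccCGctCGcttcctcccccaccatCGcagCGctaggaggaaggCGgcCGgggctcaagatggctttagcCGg
SLC15A4: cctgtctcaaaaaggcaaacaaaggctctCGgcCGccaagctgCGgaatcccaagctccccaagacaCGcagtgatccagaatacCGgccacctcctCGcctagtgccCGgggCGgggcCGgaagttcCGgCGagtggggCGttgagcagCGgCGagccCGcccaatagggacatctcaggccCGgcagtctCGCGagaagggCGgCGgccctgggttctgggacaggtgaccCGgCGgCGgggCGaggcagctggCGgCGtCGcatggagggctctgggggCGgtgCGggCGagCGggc
ADAMTS12: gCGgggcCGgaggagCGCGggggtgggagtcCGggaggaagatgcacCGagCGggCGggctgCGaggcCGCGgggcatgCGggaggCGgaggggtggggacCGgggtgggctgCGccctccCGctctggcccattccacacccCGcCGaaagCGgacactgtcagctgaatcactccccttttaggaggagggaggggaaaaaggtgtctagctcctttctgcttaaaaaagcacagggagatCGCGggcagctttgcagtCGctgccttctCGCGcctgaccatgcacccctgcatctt
PLXNA4: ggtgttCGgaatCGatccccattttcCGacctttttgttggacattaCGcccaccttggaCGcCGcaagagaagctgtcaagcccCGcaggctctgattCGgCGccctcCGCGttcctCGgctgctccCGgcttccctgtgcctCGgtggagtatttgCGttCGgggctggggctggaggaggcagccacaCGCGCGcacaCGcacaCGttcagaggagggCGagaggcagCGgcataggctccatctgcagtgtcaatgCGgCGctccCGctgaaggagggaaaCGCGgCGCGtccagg
UQCRFS1: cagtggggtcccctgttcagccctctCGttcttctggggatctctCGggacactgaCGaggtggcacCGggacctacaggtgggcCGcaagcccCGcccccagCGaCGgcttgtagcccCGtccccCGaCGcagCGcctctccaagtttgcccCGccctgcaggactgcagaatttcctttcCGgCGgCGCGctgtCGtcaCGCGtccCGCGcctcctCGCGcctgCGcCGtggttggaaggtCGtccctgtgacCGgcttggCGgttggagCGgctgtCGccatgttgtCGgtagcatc

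The promoters of the doubly marked bins were poorer in CG than those of all coding genes, as were those of other lamin B1 classes. The median ratio of observed to expected CG was 0.369 over 107 promoters in kept bins and 0.298 over 160 in lost bins, against 0.767 over 15100 coding promoters of chromosomes 1 to 22. It was 0.465 over 394 promoters in lamin B1 bins with H3K27me3 alone and 0.543 over 543 in those with H3K9me2 and H3K9me3. A ratio of at least 0.6 was found in 33.6% of kept, 31.9% of lost and 66.3% of all promoters. GC content had medians of 51.7%, 53.3% and 63.0%. The TATA box letters TATAAA, searched on both strands, occurred in 15.0% of kept, 23.8% of lost and 9.71% of all promoters, and in 17% and 18% of those other classes. TGACTCA, the site letters of the FOS and JUN proteins, occurred in 4.67%, 5.62% and 3.66%. CCCTCCCC, a cytosine-rich run of the kind HNRNPK binds in single strands, occurred in 14%, 6.88% and 15.5%, and among the 6 windows shown it is in ASTN1. A match is a run of letters and not a binding site. Among the 18 promoters in these bins whose genes had enough RNA to test, the median ratio was 0.647, and among the 249 others it was 0.305.

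RNA was then compared for the genes whose bodies lie at least 50% in the bins, kept and lost ones together. The knockdown was visible in the target itself: HNRNPK had 934, 967, 822 and 814 CPM (counts scaled to the library total) in control replicates 1 to 4 and 250, 223, 157 and 164 in the knockdown, a log2 fold change of -2.17 ± 0.06 (SE). LMNB1, which encodes lamin B1, had 169, 191, 166 and 171 CPM against 146, 147, 128 and 135, a log2 fold change of -0.33 ± 0.05 with an adjusted p of 4.22e-06 by edgeR's quasi-likelihood test. The groups did not overlap for either gene, and the LMNB1 call was lost when 2 further control libraries, labelled Scramble and purified with another RNA kit, were added (adjusted p = 0.058). The part of this lower LMNB1 RNA in the lamin B1 lists was not tested. In bulk libraries, fewer cells with a transcript and less of it per cell cannot be told apart. Library totals ran from 12107280 to 23633851 counts. Of 8 epithelial markers listed for HCT116, 6 reached 1 CPM in controls (not VIL1 or LGR5), and their summed level was 2700 to 3110 CPM in controls and 4400 to 5440 in the knockdown. Markers of other cell types summed to 45.9 to 73.8 CPM in controls and 76.9 to 125 in the knockdown, with COL1A1 the 1 of 8 that reached 1 CPM and CD3E at 0, and their part in the results below was not tested.

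Few genes of the bins had enough RNA to test. The count table held 548 of them (258 in kept bins, 275 in lost bins and 15 across both), of which 224 had any count and 32 passed the limit on low counts. Of these 32, 22 were higher after HNRNPK depletion and 1 was lower, at an adjusted p under 0.05 in edgeR's quasi-likelihood test. Over all 13933 genes tested the shares were 35.5% higher and 36.1% lower. In either direction 71.9% of the 32 genes were called, close to the 71.5% of all genes. In kept bins 8 of 13 tested genes were higher and none lower. In lost bins 12 of 17 were higher and 1 lower, and of the 2 genes across both kinds, MTUS2 and HDAC2-AS2, both were higher. For 19 genes all 4 knockdown libraries lay above all 4 controls, a separation that 28.5% of all tested genes showed. None was separated in the other direction.

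These counts carry a limit set by the filter. Of the 32 genes, 16 passed in all 4 knockdown libraries but not in all 4 controls, which favours genes that are higher in the knockdown, and 14 of these 16 were called higher. Of the 14 that passed in all 4 controls, 7 were higher and 1 lower, against 33.5% higher among all genes that passed in all controls, and their median log2 fold change was 0.13 against -0.04 there. The 7 were FAM78B, ZBTB18, SPRR2D, EPDR1, UQCRFS1, CSMD2 and FAM49A (CYRIA in RefSeq), of which SPRR2D, UQCRFS1 and FAM49A lost their calls with Scramble controls added. Kit separates the libraries as well, since replicates 1 and 2 were made with a TruSeq kit and 3 and 4 with a Ligation kit. Within TruSeq alone 20 of 35 tested genes were called, all higher, against 57.8% of all genes called and 28.5% called higher. Within Ligation alone 24 of 32 were called, 23 of them higher, against 68.1% and 33.8%.

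Summed over every gene, tested or not, RNA from the bins was higher in the knockdown. Genes in kept bins summed to 51.2, 56.3, 49.8 and 52.4 CPM in control replicates 1 to 4 and to 77.8, 74.6, 76.0 and 72.3 in the knockdown. Genes in lost bins summed to 192, 187, 171 and 174 CPM in controls and 220, 218, 218 and 220 in the knockdown. The groups do not overlap in either. Without the 3 most abundant genes of each, the sums went from a mean of 12.4 ± 0.774 to 33.2 ± 2.31 CPM (SD, n = 4) in kept bins, 2.68 times, and from 29.0 ± 2.45 to 57.7 ± 4.13 in lost bins, 1.99 times. The number of genes with a count in kept bins was 38, 35, 34 and 38 in controls and 66, 49, 47 and 61 in the knockdown. In lost bins it was 52, 43, 54 and 63 in controls and 72, 76, 75 and 78 in the knockdown, at totals of 14810376 to 23633851 counts in controls and 12107280 to 15255556 in the knockdown. These sums and numbers of genes were computed only for the doubly marked bins, so whether other genes of low count rose alike was not tested. Whether kept and lost bins differ in their RNA change was not tested.

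The largest rises in lost bins began with ADAMTS12, a secreted metalloprotease (chr5:33523535-33891990). It had 0 counts in all 4 controls and 1.91, 2.08, 1.77 and 1.90 CPM in the knockdown, at least 46.7-fold higher than the 3 counts that a total of 0 over the 4 controls allows (adjusted p = 2.22e-08). PLXNA4 (chr7:132123340-132648688), which fills part of the longest lost run, had 0.178, 0.501, 0.333 and 0.657 CPM in controls and 3.16, 4.46, 2.95 and 2.47 in the knockdown. Its log2 fold change was 2.90 ± 0.31 with an adjusted p of 1.24e-07, and its printed promoter lies in a lost bin. The long noncoding RNA LINC02177 (chr16:9355588-9408093) had at most 0.167 CPM in controls and at least 0.824 in the knockdown, a log2 fold change of 3.25 ± 0.48.

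RPH3A, which encodes the synaptic vesicle protein rabphilin (chr12:112575236-112898881), had 0.652, 0.877, 0.60 and 0.657 CPM in controls and 2.90, 2.08, 3.54 and 4.12 in the knockdown (log2 fold change 2.11 ± 0.26, adjusted p = 7.57e-07). DAAM2, a formin that organises actin (chr6:39792376-39904869), had 0.266 to 0.657 CPM in controls and 0.743 to 1.45 in the knockdown, a log2 fold change of 1.35 ± 0.38. GRIP1, a scaffold for glutamate receptors (chr12:66347431-67069338), had 0.356 to 0.877 CPM and then 1.26 to 1.71, a log2 fold change of 1.25 ± 0.30. Groups that do not overlap were a condition for naming these 6 genes. None of the 6 passed the limit on low counts in all 4 controls, while each passed in all 4 knockdown libraries. That filter favours genes that are higher in the knockdown, so their adjusted p values carry the same limit.

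In kept bins the largest rise was CACNA1E, the pore of an R-type calcium channel (chr1:181317699-181808084). It had no count in 3 controls and 0.219 CPM in control replicate 4, against 1.19, 1.26, 1.77 and 1.40 CPM in the knockdown (log2 fold change 4.50 ± 0.58, adjusted p = 1.22e-06). Kept bins hold 61.2% of its body and lost bins 22%, among them the bin with the RefSeq start used here. The fold rests on 4 counts in that control: without it the fitted value was 7.36, and within TruSeq, where both controls are at 0, it was 7.42, against 3.62 within Ligation. ASTN1 (chr1:176857321-177164712), inside the longest kept run, had 0.830, 1.38, 1.07 and 0.493 CPM in controls and 3.82, 4.60, 3.12 and 3.63 in the knockdown. Its log2 fold change was 1.99 ± 0.24 (adjusted p = 5.98e-07), and both its body and its start lie in bins that stayed in lamin B1 domains.

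ANKFN1, an ankyrin and fibronectin repeat protein (chr17:56046077-56517016), had 0.711, 0.376, 1.07 and 0.930 CPM in controls and 4.02, 2.82, 3.71 and 3.54 in the knockdown (log2 fold change 2.25 ± 0.26, adjusted p = 3.10e-07). Kept bins hold 64.5% of the ANKFN1 body and lost bins 35.5%. FAM78B (chr1:166055918-166167001) had 0.711, 1.13, 2.00 and 2.08 CPM in controls and 4.22, 4.53, 4.05 and 4.12 in the knockdown, and the start used here lies in a lost bin. Its log2 fold change was 1.56 ± 0.23 over both kits, 2.21 within TruSeq and 0.99 within Ligation. The noncoding LINC00944 (chr12:126730701-126772262) and MGC12916 (chr17:14303740-14305745) had log2 fold changes of 3.20 ± 0.42 and 2.75 ± 0.40 from control levels of at most 0.328 and 0.474 CPM. MGC12916 lies inside the body of HS3ST3B1, whose own change missed the threshold (-0.30 ± 0.15, adjusted p = 0.088), and LINC00944 overlaps LINC00943. Whether reads were counted by strand is not given in the sources used here, so reads of such overlapping genes cannot be told apart. Of the rises named in kept bins, only FAM78B passed the limit on low counts in all 4 controls. The others passed in all 4 knockdown libraries but in fewer controls, which favours genes that are higher in the knockdown.

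The genes with the highest control levels were also followed. Levels were taken per kb of gene body, used because exon lengths are not in the count table. UQCRFS1, the Rieske iron-sulfur subunit of respiratory complex III (chr19:29205320-29213151), led the lost bins with 14.6 CPM per kb in controls. It had 126, 122, 104 and 106 CPM in controls and 131, 122, 123 and 120 in the knockdown. The groups overlap, and its log2 fold change of 0.12 ± 0.05 (adjusted p = 0.038) lost its call in 10 of 18 alternative fits. SPRR2D, a cornified envelope protein, had 2.42 to 4.46 CPM in controls and 4.28 to 7.58 in the knockdown (0.69 ± 0.15 on the log2 scale), with overlap. With the Scramble controls added its value turned to -0.66 (adjusted p = 0.555). ZBTB18, a zinc finger repressor (chr1:244048491-244057476), had 5.75 to 7.81 CPM in controls and 10.3 to 14.2 in the knockdown, with no overlap (0.88 ± 0.13, adjusted p = 4.65e-06).

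In kept bins the highest control levels per kb were those of ALG10, a glucosyltransferase of the endoplasmic reticulum with 1.24 CPM per kb, SLC15A4, a lysosomal transporter of histidine and peptides with 0.905, and MGC12916 with 0.117. ALG10 had 6.4 to 8.65 CPM in controls and 6.91 to 8.09 in the knockdown. SLC15A4 had 27.7, 33.7, 23.9 and 26.1 CPM in controls and 31.0, 33.3, 29.6 and 29.3 in the knockdown, a log2 fold change of 0.14 ± 0.08 (adjusted p = 0.112). Neither passed the test. The 1 gene called lower, named after its values were seen, was PCTP in lost bins, a phosphatidylcholine transfer protein with 27, 25, 27.7 and 28.1 CPM in controls and 21.4, 25, 23.9 and 22.2 in the knockdown (-0.22 ± 0.08, adjusted p = 0.017). Its groups meet at the same value, and the call was lost in 5 of 18 alternative fits: with Scramble added, within TruSeq, and without siNTC5 replicate 4, siHNRNPK replicate 1 or siHNRNPK replicate 4.

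**Figure D5:**
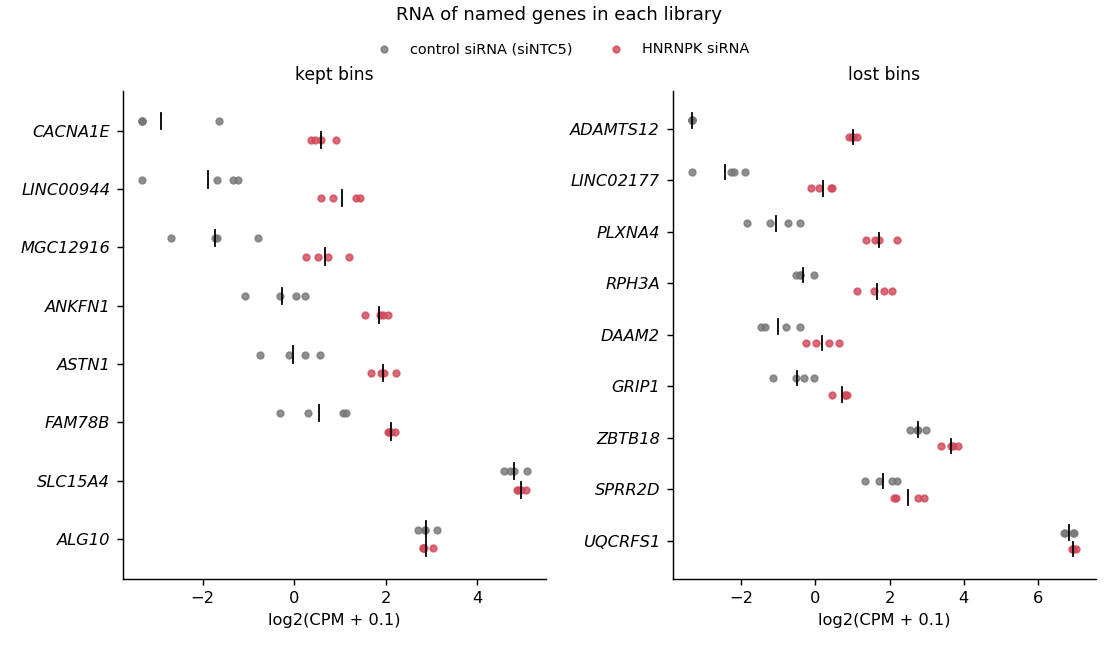
RNA of the named genes in each library on a log2(CPM + 0.1) axis, for genes in kept bins (left) and lost bins (right), with grey points for the 4 control libraries, red points for the 4 HNRNPK siRNA libraries and black bars for means. Red points lie clear of grey ones for ADAMTS12, PLXNA4, CACNA1E and ASTN1, and overlap them for ALG10, SLC15A4 and UQCRFS1.

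Of the gene families listed above, 3 members in the bins were tested: CACNA1E among ion channels, PLXNA4 among axon guidance genes and ADAMTS12 among metalloproteases. All 3 were called higher, but none of them passed the limit on low counts in more than 1 control, so they were tested because of their knockdown level. The remaining family members, including the KCNA and SCN channel genes, PAX3, TBX5 and the olfactory receptors of the lost bins, stayed under the limit on low counts, so a change in them was not tested in the main fit. In lost bins 17 of the 275 genes of the count table could be tested, and in kept bins 13 of 258.

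Other bin classes gave a scale for these counts. Of tested genes in lamin B1 bins with H3K27me3 alone, 44.4% of 135 were higher and 22.2% lower. With none of the marks, 25.6% of 86 were higher and 36.0% lower. With H3K9me2 and H3K9me3, 62.7% of 102 were higher and 5.88% lower, and with all 3 marks 81.8% of 11 were higher and 9.09% lower. The doubly marked bins had 68.8% of 32 higher and 3.12% lower. Outside control lamin B1 domains, 35.1% of 12897 were higher and 36.9% lower. Among genes past the limit on low counts in all 4 controls, the shares higher were 50.0% of 14 in the doubly marked bins, 32.4% of 105 with H3K27me3 alone, 23.1% of 78 with no mark, 60.7% of 89 with H3K9me2 and H3K9me3, 8 of 10 genes with all 3 marks and 33.4% of 12077 outside. The share of genes that could be tested was 5.84% in the doubly marked bins, 16.4% with H3K27me3 alone and 56.2% outside, and the difference between classes was not tested.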

How the data were processed

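ChIP-seq domains and gene counts of HCT116 cells were analysed as deposited. The authors deposited 7 domain lists, 1 per antibody and siRNA, with ends on a 5 kb grid and a score per domain; how domains were called, what the score measures and how replicates were combined are not given in the sources used here. The submitters' processing notes name hg38, bcl2fastq 2.20, fastp 0.23.2, Bowtie2 2.5.1 and deepTools 3.1.3 for ChIP-seq, and STAR 2.7.1a, featureCounts and Subread 2.0.6 for RNA. These notes also name the build hg19 and DESeq2. All bins and gene positions used here are on GRCh38. The authors deposited RNA as whole-number counts per gene, and only those were tested; the authors' deposited gene length was not used.

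From the lists, the share of each 50 kb bin covered was computed in Python 3.11.15. Genes took positions from RefSeq GRCh38.p14 by symbol (27614 of 28278 names matched) and belonged to bins holding at least 50% of their body. Counts were tested with edgeR 4.0.16 (R 4.3.3): filterByExpr, TMM, a quasi-likelihood fit with kit and siRNA as terms over 4 and 4 libraries, Benjamini-Hochberg over 13933 genes, threshold 0.05. CPM are counts scaled to TMM-adjusted library totals. Bin cover and the fit were tested on simulated data. Deviations from group means correlated between equal replicate numbers at 0.100 to 0.425, and within kits at 0.009 to 0.058, so the numbers share a kit and were taken as no further pairing.

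Named genes were, in kept and lost bins separately, the 6 largest rises and 4 largest falls among called genes whose groups do not overlap (no fall qualified), and the 3 highest control levels per kb. The bins, gene lists and rules were chosen with earlier results of these data known. GC content of whole bins was not analysed here.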

Additional observations from a re-analysis of the deposited data

Results flagged for a closer look

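In 3 groups of 4 libraries, 1 library lay far from the other 3 in the CPM of a named or called gene, out of 54 groups of 27 genes; chance marks about 1 in 20. CACNA1E had 0.219 CPM in siNTC5 replicate 4 and no count in the other 3 controls. ALG10 had 8.09 CPM in siHNRNPK replicate 3, above 6.91 to 7.05 in the other 3. EPDR1, in lost bins, had 13 CPM in siHNRNPK replicate 3, below 14.5 to 14.8 in the others.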

How the results depend on the processing

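The kept share of 60.1% moved to 54.2% for bins with any base in the 3 lists and none in H3K9me3, 74.5% with the better-scoring 50% of each control list, 54.9% when kept needed 80% cover, and 65.4% when any base sufficed. As a yardstick, a 95% Wilson interval over the 396 domains runs from 55.2% to 64.8%. It takes the domains of 1 pair of lists as independent and is no error of the condition. The share stayed inside it for bins of 25 or 100 kb, shifted bins, 80% cover with under 20% H3K9me3, a shared lowest lamin B1 score, bases in place of bins, and, added after seeing the data, without chromosome 22. With the better-scoring 50%, H3K9me3 cover in the knockdown was 17.3% in kept and 12.1% in lost bins. The share of lost bins under 100 kb from a domain end was 37.2%, and 31.7% at 80% cover, 44.0% with any base and 47.2% with the better-scoring 50%. No other domain value left its own yardstick interval.

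The 23 calls of 32 (71.9%, and 71.5% of all genes) became 50 of 224 without a filter on low counts (22.3%, all genes 50.4%). They became 5 of 9 at a mean of at least 50 counts (55.6%, all genes 75.9%) and 15 of 31 with Scramble libraries added (48.4%, all genes 51.7%). With genes assigned by any base, 48 of 72 were called (39 higher, 9 lower), 66.7% against 71.5% of all genes. Among genes past the limit in all 4 controls, added after seeing the data, 8 of 14 were called (57.1%). Of all 12951 genes past that limit, 4343 were called higher and 5011 lower. Leaving out each library gave 20 to 27 calls among 32 to 36 tested genes (61.1% to 77.1%, all genes 67.9% to 70.9%). The replicate block gave 22 of 32 (68.8%, all genes 70.9%) and DESeq2's Wald test 21 of 32 (65.6%, all genes 68.1%). SPRR2D turned from 0.69 to -0.66 with Scramble added, without a call there. The other changes of single genes were 33 lost and 2 gained calls over 464 refits. The cause of these changes was not tested, except that fewer or more genes enter the filters and assignments. Domain lists have no replicates, and genes that did not reach about 0.665 CPM in enough libraries were left out of the main fit.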
